A study of Mus musculus with 5 samples.

Results

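Cells answer type I interferon through a short relay, and 9 genes of that relay were followed in amygdala astrocytes of CCR2-DTR mice. They are the receptor chains Ifnar1 and Ifnar2, the receptor-bound kinases Jak1 and Tyk2, and 5 genes that interferon itself induces: Stat2, Irf9, Irf7, Irf1 and Usp18. The members were chosen by gene symbol from the 35976 genes of the deposited count table, and 9 of 9 were present and passed the low-count filter.

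Interferon binding brings the chains IFNAR1 and IFNAR2 together, and the kinases TYK2 and JAK1 held on their inner tails then phosphorylate STAT proteins. Phosphorylated STAT2, a further STAT protein and IRF9 form the complex ISGF3, which enters the nucleus and binds the interferon-stimulated response element of target genes. Receptor and kinase genes are transcribed in resting cells, whereas STAT2, IRF9, IRF7, IRF1 and USP18 are also products of the response, so their transcripts are used as a readout of it. In brain, astrocytes and microglia both carry the receptor.

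Both groups carried the genotype Ccr2::CreERT2/+;DTR/+, which pairs a tamoxifen-inducible Cre recombinase driven from Ccr2 with a diphtheria toxin receptor (DTR). All mice were given tamoxifen and 18 days of tube restraint, then fear conditioning and extinction, with saline in one group and DTx (diphtheria toxin) in the other. The sources used here give neither age nor strain background. Cells bound by beads against ACSA-2, an astrocyte surface protein, were sequenced from the amygdala in 2 saline libraries (replicates 1 and 2) and 3 DTx-labelled libraries (5A, 6A and 7A). The stated design has 3 mice a group, and no label ties a library to 1 mouse. The question was how loss of CCR2-expressing monocytes under chronic stress bears on astrocyte gene expression.

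Several facts of the libraries touch every result. Total counts were 15961220 to 23720299 per library, and the 9 genes had 4995 to 6227 counts in each, with at least 17 for any gene. Ccr2 had 0 counts in both saline libraries and 54, 4 and 4 counts in libraries 5A, 6A and 7A. Depletion of CCR2-expressing cells would go the other way, so every direction here is that of the libraries as labelled. Xist stood at 128.9 to 172.6 CPM in saline and 0 to 0.159 CPM in the DTx-labelled libraries, and the Y-linked Ddx3y at 0.0448 to 0.185 and 116 to 134.7 CPM. Treatment and the state of the sex chromosomes therefore cannot be told apart. That holds for the 9 genes too, although none of them lies on chromosome X or Y. The 10 astrocyte markers were present in every library, at a summed level of 24227 to 28323 CPM (read counts scaled to library size with TMM, a correction for composition). Their mean log2 CPM was 10.31 and 10.57 in saline and 10.60, 10.71 and 10.59 in libraries 5A, 6A and 7A. The DTx-labelled libraries thus lay above saline without overlap, though only just above replicate 2. Of the 10 markers 5 were higher and 5 lower, and 0 passed the edgeR test. The 9 oligodendrocyte markers summed to 42180 to 90931 CPM, more than the astrocyte markers in 5 of 5 libraries. Libraries 5A and 6A were the most alike pair by counts (chi-square of 14.2 per degree of freedom), and saline replicate 2 and library 7A the next (17.7), so library likeness did not follow the labels. In such bulk samples, fewer cells of a type and less RNA per cell cannot be told apart.

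The interferon-induced regulators lay higher in the DTx-labelled libraries, while the receptor and kinase genes lay on either side of saline. Of the 5 interferon-induced regulators 5 had a log2 fold change above zero, from 0.48 to 3.68, and the median was 1.85. Of the 4 receptor and kinase genes 2 were higher and 2 lower, with a median of -0.040 and a range of -0.27 to 0.53. Over all 15532 genes tested the median was 0.0017, and 50.3% of genes were higher.

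None of the 9 members passed edgeR's quasi-likelihood test at an adjusted p of 0.05 over all genes, where 0.0322% of genes passed. At an unadjusted p under 0.05 there were 5 members, all higher (Ifnar2, Irf9, Irf7, Irf1 and Usp18), against 4.29% of all genes higher. Values of the 2 groups did not overlap for 5 members with the DTx-labelled libraries higher, against 12.1% of all genes, and for 1 member with them lower, against 8.99%. With DESeq2 3 members passed (Irf9, Irf7 and Usp18, with 0.729% of all genes), and the same 3 passed the edgeR likelihood ratio test (0.644% of all genes).

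**Figure D1:**
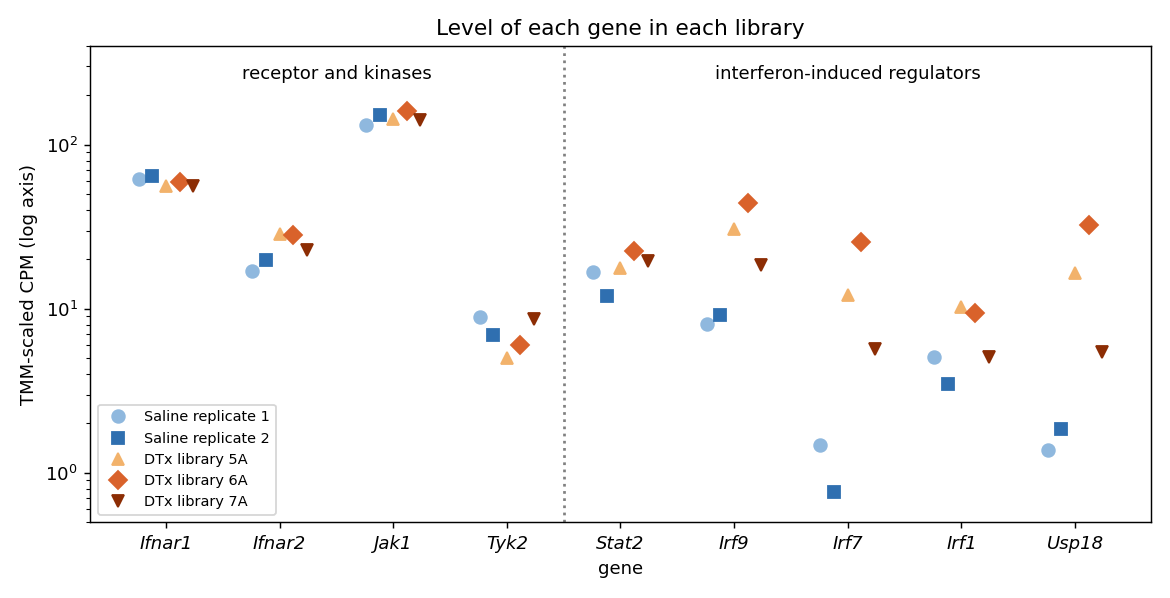
Level of each of the 9 genes in each library, in CPM on a log axis, with 1 point per library and receptor and kinase genes left of the dotted line. The points of Ifnar1 and Jak1 lie close together, whereas Irf7 spans 0.762 to 25.6 CPM and library 6A is the highest for Stat2, Irf9, Irf7 and Usp18.

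Ifnar1 encodes the receptor chain that holds TYK2 (GRCm38 chromosome 16, 91485032 to 91510523, 11 exons in its principal transcript). Its level was 62.2 and 64.6 CPM in saline replicates 1 and 2 and 56.3, 59.5 and 56.2 CPM for 5A, 6A and 7A. The DTx-labelled libraries lay below both saline libraries without overlap, but by little. Saline averaged 63.4 ± 1.70 CPM (SD, n = 2), and the DTx-labelled group 57.3 ± 1.88 CPM (SD, n = 3). A log2 fold change of -0.14 ± 0.12 (SE) had an edgeR adjusted p of 0.831.

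Ifnar2 encodes the other chain, which holds JAK1 and to which USP18 also binds (chromosome 16, 91372783 to 91405589). It was at 17.0 and 19.8 CPM after saline, while 5A, 6A and 7A held 28.8, 28.1 and 22.8 CPM. All 3 DTx-labelled libraries lay above saline, and 7A was the lowest of them. Its log2 fold change of 0.53 ± 0.17 (SE), or 1.44-fold, had an unadjusted p of 0.0189 and an edgeR adjusted p of 0.789. With mean microglia signal as a covariate it was 0.32. In GENCODE M21, 10.3% of the principal transcript of Ifnar2 is shared with the gene model Gm21970 on the same strand, and gene counts do not separate the membrane form from the soluble form.

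Jak1, the kinase shared by many cytokine receptors (chromosome 4, 101151974 to 101265282), was at 131.9 and 152.3 CPM with saline, against 143.7, 159.9 and 142.4 CPM for 5A, 6A and 7A. The groups overlapped, and the log2 fold change was 0.065 ± 0.15 (SE, edgeR adjusted p = 0.937). Its sign turned in 2 of 15 alternatives, to -0.038 without saline replicate 1 and to -0.037 with mean microglia signal as a covariate. Tyk2, the kinase bound to IFNAR1 (chromosome 9, 21104068 to 21131393), was at 8.91 and 6.95 CPM after saline, while 5A, 6A and 7A held 5.02, 6.03 and 8.72 CPM. The low Tyk2 values were in 5A and 6A, and library 7A lay between the saline libraries. The log2 fold change of Tyk2 was -0.27 ± 0.30 (SE, edgeR adjusted p = 0.871), and it was 0.13 with the microglia covariate.

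Stat2 encodes the STAT subunit that couples IRF9 to the activated receptor (chromosome 10, 128270498 to 128292853). Its level was 16.7 and 11.97 CPM with saline, against 17.8, 22.5 and 19.6 CPM for 5A, 6A and 7A. The groups did not overlap, but library 5A lay only just above saline replicate 1. For Stat2 the log2 fold change of 0.48 ± 0.21 (SE) had an unadjusted p of 0.0563 and an edgeR adjusted p of 0.797. It was 0.26 without saline replicate 2 and 0.80 with the microglia covariate.

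The 250 bases before the transcript start of Stat2 in RefSeq (chr10:128270248-128270497, plus strand) are shown because among the members with a promoter sequence Stat2 was the one whose window held the core of the interferon-stimulated response element. That core was searched on both strands as a pair of GAAA with any 2 bases between them, and it overlaps the looser IRF core AANNGAAA. Capitals mark the matches, which lie on the minus strand and overlap. The response element core and a looser core start 222 bases before the transcript start. A further looser core, TTTCCTTT, runs from 216 to 209 bases before it.
Stat2 promoter: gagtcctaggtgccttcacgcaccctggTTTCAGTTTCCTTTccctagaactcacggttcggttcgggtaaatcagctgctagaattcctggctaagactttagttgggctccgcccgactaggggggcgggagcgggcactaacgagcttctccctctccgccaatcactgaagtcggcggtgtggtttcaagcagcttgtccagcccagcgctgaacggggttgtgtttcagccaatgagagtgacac

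Irf9 encodes the DNA-binding subunit of ISGF3 (chromosome 14, 55603985 to 55610030). It was at 8.13 and 9.10 CPM after saline, while 5A, 6A and 7A held 30.5, 43.9 and 18.6 CPM. The lowest DTx-labelled library was above both saline libraries, and 6A was 2.36 times 7A. Saline averaged 8.61 ± 0.689 CPM (SD, n = 2), and the DTx-labelled group 31.0 ± 12.7 CPM (SD, n = 3). The log2 fold change of 1.85 ± 0.37 (SE), or 3.59-fold, ranked 43rd by p among all genes, with an edgeR adjusted p of 0.759. Its adjusted p was 0.000851 with DESeq2 and 0.00267 with the likelihood ratio test.

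Irf7 encodes the factor that drives the later wave of interferon-alpha genes (chromosome 7, 141263183 to 141266499). It had 32 and 17 counts in saline and 228, 411 and 100 counts in libraries 5A, 6A and 7A, or 1.48, 0.762, 12.1, 25.6 and 5.70 CPM in the same order. The lowest DTx-labelled value was several times the highest saline value, and the DTx-labelled libraries themselves spanned 4.49-fold. The log2 fold change of 3.68 ± 0.76 (SE), or 12.8-fold, was the highest of the 9 genes. It ranked 55th by p among all genes, with an edgeR adjusted p of 0.759, against 2.1e-05 with DESeq2 and 0.00187 with the likelihood ratio test. Without library 6A the log2 fold change was 2.98, and without saline replicates 1 and 2 it was 4.23 and 3.28.

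Usp18 encodes a protease that removes ISG15 from proteins and blocks JAK1 at IFNAR2, a brake on the pathway (chromosome 6, 121245906 to 121270917). It had 30 and 41 counts in saline and 313, 519 and 96 counts in libraries 5A, 6A and 7A, or 1.39, 1.84, 16.5, 32.3 and 5.47 CPM in the same order. Library 6A was again the highest and 7A the lowest of the DTx-labelled libraries, 5.90-fold apart, with no overlap with saline. Usp18 had a log2 fold change of 3.48 ± 0.82 (SE), or 11.2-fold, with an edgeR adjusted p of 0.761 and a DESeq2 adjusted p of 0.000129. It was 2.76 without library 6A. Of its principal transcript 7.002% overlaps the noncoding gene Gm44148 on the opposite strand, and the sources used here do not say whether counting used the strand.

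Irf1 encodes a transcription factor best known as a product of interferon-gamma signalling, which reaches its promoter through STAT dimers at gamma-activated sequences (chromosome 11, 53770014 to 53778374). It was at 5.08 and 3.497 CPM with saline, against 10.3, 9.45 and 5.07 CPM for 5A, 6A and 7A. Libraries 5A and 6A lay above saline, while 7A was level with saline replicate 1, so the groups overlapped. For Irf1 the log2 fold change of 0.95 ± 0.38 (SE) had an unadjusted p of 0.0418 and an edgeR adjusted p of 0.789. With the oligodendrocyte marker mean as a covariate it was 0.46. Of the principal transcript of Irf1, 4.68% overlaps the protein-coding gene Gm17334 on the opposite strand, with the same limit as for Usp18.

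The promoters of the other 3 regulators with a RefSeq sequence are shown so that their letters can be read beside those of Stat2. They are the 250 bases before the start of Irf1 (chr11:53769764-53770013, plus strand), of Irf9 (chr14:55603735-55603984, plus strand) and of Irf7 (chr7:141266425-141266674, minus strand). The listed start of Irf7 lies downstream of the outermost end given for the gene above, so its window overlaps the gene. Capitals mark the gamma-activated sequence TTCNNNGAA, found in Irf1 90 bases before the start, and lower case throughout means that no searched motif was found.
Irf1 promoter: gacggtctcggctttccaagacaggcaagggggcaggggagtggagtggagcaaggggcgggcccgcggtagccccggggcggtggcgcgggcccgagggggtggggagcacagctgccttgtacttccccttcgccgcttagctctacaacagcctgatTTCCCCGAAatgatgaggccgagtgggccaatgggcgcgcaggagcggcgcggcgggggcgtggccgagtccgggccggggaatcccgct
Irf9 promoter: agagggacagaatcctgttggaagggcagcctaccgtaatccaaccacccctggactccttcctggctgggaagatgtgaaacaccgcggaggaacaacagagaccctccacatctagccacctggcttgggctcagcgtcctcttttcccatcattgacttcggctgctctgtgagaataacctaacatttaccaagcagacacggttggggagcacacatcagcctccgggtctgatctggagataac
Irf7 promoter: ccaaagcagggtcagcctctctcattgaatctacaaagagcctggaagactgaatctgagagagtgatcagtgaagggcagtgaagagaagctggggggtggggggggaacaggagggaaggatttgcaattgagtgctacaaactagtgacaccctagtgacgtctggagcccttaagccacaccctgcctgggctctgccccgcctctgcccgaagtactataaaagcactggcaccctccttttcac

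Promoter sequences were at hand for 8 of the 9 members, in 10 windows, and Usp18 had none. The response element core was found in 2.98% of 32851 windows in RefSeq (GRCm38.p6), the gamma-activated sequence in 7.02% and the looser IRF core in 21.3%. Among the receptor and kinase genes Ifnar2 held 1 gamma-activated sequence, 214 bases before its start. The regulators with the highest fold changes and a sequence, Irf7 and Irf9, held none of the 3 motifs in these windows, nor did the other listed start of Irf9. The search covers these letters in these windows and no further sequence. The printed Irf7 window ends in tttcac, letters that can open the response element core read on the opposite strand. A match running past the transcript start lay outside the search.

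**Figure D2:**
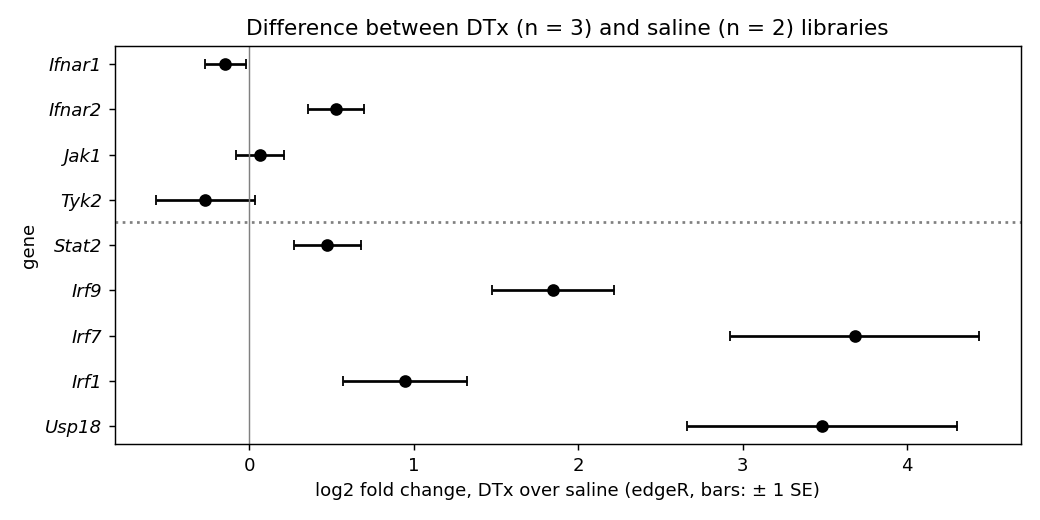
Log2 fold change of each gene between the DTx-labelled (n = 3) and saline (n = 2) libraries from edgeR, with bars of 1 SE. Ifnar1, Jak1 and Tyk2 lie within 0.3 of zero, Ifnar2 and Stat2 near 0.5, Irf1 and Irf9 at 0.95 and 1.85, and Irf7 and Usp18 above 3.

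Set side by side within each library, the role groups lay closer together in the DTx-labelled libraries. The mean log2 CPM of the 4 receptor and kinase genes was 5.07 and 5.10 in saline and 5.05, 5.16 and 5.16 in libraries 5A, 6A and 7A. That of the 5 regulators was 2.14 and 1.88 in saline and 4.03, 4.58 and 3.18 in the DTx-labelled libraries. The regulators thus stood 2.92 and 3.22 log2 units below the receptor genes in saline, and 1.02, 0.58 and 1.98 below in libraries 5A, 6A and 7A. The same library order, 6A then 5A then 7A, held for Irf9, Irf7 and Usp18. The receptor and kinase genes did not share one order, since 5A was the highest library for Ifnar2 and 6A for Jak1.

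Per kilobase of principal transcript, the order of levels also differed between groups. In saline the order was Jak1 (29.0 ± 2.94 CPM per kb, SD, n = 2), Ifnar1 (16.2 ± 0.436), Ifnar2 (6.05 ± 0.645), Irf9 (3.503 ± 0.280), Stat2 (3.26 ± 0.763), Irf1 (2.01 ± 0.523), Tyk2 (1.64 ± 0.287), Usp18 (0.910 ± 0.181) and Irf7 (0.584 ± 0.264). Of the neighbours in that order, Irf9 and Stat2, Stat2 and Irf1, Irf1 and Tyk2, and Usp18 and Irf7 lay within their summed SDs of each other. In the DTx-labelled libraries the means of Jak1 (30.3 ± 1.99 CPM per kb, SD, n = 3) and Ifnar1 (14.7 ± 0.482) were the highest. Irf9 (12.6 ± 5.16) and Usp18 (10.2 ± 7.61) stood next, with Ifnar2 at 8.71 ± 1.08, Irf7 at 7.53 ± 5.29, Stat2 at 4.54 ± 0.546, Irf1 at 3.87 ± 1.31 and Tyk2 last at 1.36 ± 0.395. The spread of Irf9, Usp18 and Irf7 was too wide to place Irf9 and Usp18 against Ifnar1, or any of these 3 against Ifnar2. Of the other neighbours in that order, Irf9 and Usp18, Irf7 and Stat2, and Stat2 and Irf1 also lay within their summed SDs. In library 6A Usp18 (18.2 CPM per kb) and Irf9 (17.9) stood above Ifnar1 (15.2). In that library Usp18 was at 18.2 CPM per kb against 9.23 for Ifnar2, and in saline replicate 1 at 0.782 against 5.59. The authors' annotation may give other transcript lengths than the GENCODE ones used.

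**Figure D3:**
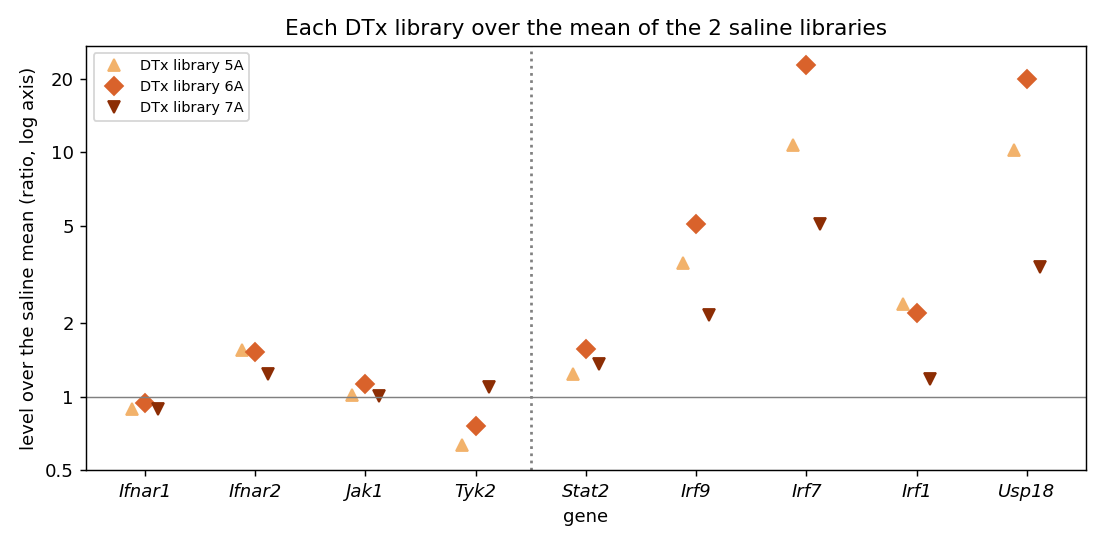
Level of each gene in each DTx-labelled library over the mean of the 2 saline libraries, on a log axis with a line at 1. Library 6A reached 22.8 times the saline mean for Irf7 and 20.03 times for Usp18, while library 7A reached 5.09 and 3.39 times, and the points of Ifnar1 lie between 0.887 and 0.939.

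The DTx-labelled libraries spread widely for Usp18, Irf7, Irf9 and Irf1. Their coefficient of variation was 74.4% for Usp18, 70.3% for Irf7, 40.9% for Irf9 and 33.9% for Irf1, but 12.01% for Stat2. For the receptor and kinase genes it was 3.28% for Ifnar1, 6.55% for Jak1, 12.3% for Ifnar2 and 29.0% for Tyk2, which has few counts. Irf7 and Usp18 also had the widest SE of fold change among the 9 genes.

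By likeness of profile, each gene's log2 CPM was centred on its mean over the 5 libraries and compared with that of Irf7 or Irf9 among 13926 other genes of at least 1 CPM. Nearest to Irf7 were Ddx60, an interferon-induced helicase (root-mean-square distance 0.31 log2 units), and Slfn8, a Schlafen family gene (0.38), against a median of 1.82 over all candidates. Nearest to Irf9 were Ngb, the globin of neurons (0.14), Arhgap36 (0.15), and Npffr1, a neuropeptide FF receptor (0.16), against a median of 0.97. Ngb was at 3.09 and 2.73 CPM after saline, while 5A, 6A and 7A held 11.05, 15.98 and 5.64 CPM, the same library order as Irf9. These distances describe 5 libraries, and the genes compared share their libraries and depth.

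Summed markers of other cells also differed between these libraries. The 20 microglia markers, of which 19 were higher and 0 passed the edgeR test, summed to 163.4 and 399.2 CPM with saline, against 653.5, 485.8 and 386.6 CPM for 5A, 6A and 7A, and none was at 0. Saline replicate 2 thus held slightly more microglia marker signal than library 7A, and also nearly the same oligodendrocyte signal, at 90931 and 88858 CPM. Within that pair Irf7 was 0.762 against 5.70 CPM, Usp18 1.84 against 5.47 CPM and Irf9 9.10 against 18.6 CPM. Ifnar1 was 64.6 against 56.2 CPM and Jak1 152.3 against 142.4 CPM. Ifnar2 was 19.8 against 22.8 CPM and Tyk2 6.95 against 8.72 CPM. The pair was chosen after its values were seen, has 1 library a side, and differed in summed neuron markers (312 against 460.7 CPM) and border macrophage markers (26.3 against 53.9 CPM). The part of cell content in the differences within the pair was not tested. With mean microglia signal as a covariate the log2 fold changes of Irf9, Irf7 and Usp18 were 1.62, 4.10 and 3.01, with 0 members past the threshold.

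Oligodendrocyte markers were lower for 9 of 9 genes in the DTx-labelled libraries (0 passed), and libraries 5A and 6A, highest for the regulators, were lowest for them at 42180 and 43462 CPM. With their mean as a covariate, chosen after seeing the data, the log2 fold changes of Irf9, Irf7 and Usp18 were 1.41, 2.76 and 2.36. The 10 neuron markers, 9 of them higher and 0 past the threshold, summed to 345.9 and 312 CPM after saline, while 5A, 6A and 7A held 381.1, 480.4 and 460.7 CPM. Their mean log2 CPM was 4.27 and 3.88 in saline and 4.57, 4.80 and 4.29 in libraries 5A, 6A and 7A. By that mean the libraries stood in the same order as by the mean of the regulators. No fit took the neuron mean as a covariate. The 7 border macrophage markers were higher for 7 of 7 (0 passed), at 19.0 and 26.3 CPM with saline, against 134.1, 18.1 and 53.9 CPM for 5A, 6A and 7A. Library 6A, the highest for Irf9, Irf7 and Usp18, was level with saline in the sum of border macrophage markers. Of 10 monocyte markers 3 were tested and 3 were higher (0 passed), and the list summed to 15.1 and 19.6 CPM after saline, while 5A, 6A and 7A held 106, 20.8 and 44.7 CPM. Lyz2, which macrophages also express, had the highest of these fold changes, at 2.42 on the log2 scale, with 358 counts over the saline libraries and 2396 over the DTx-labelled ones. Ly6c2 had 2, S100a8 1 and S100a9 2 counts over the saline libraries and none in 5A, 6A or 7A. The part of neuron, monocyte and border macrophage RNA in the regulators' values was not tested.

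**Figure D4:**
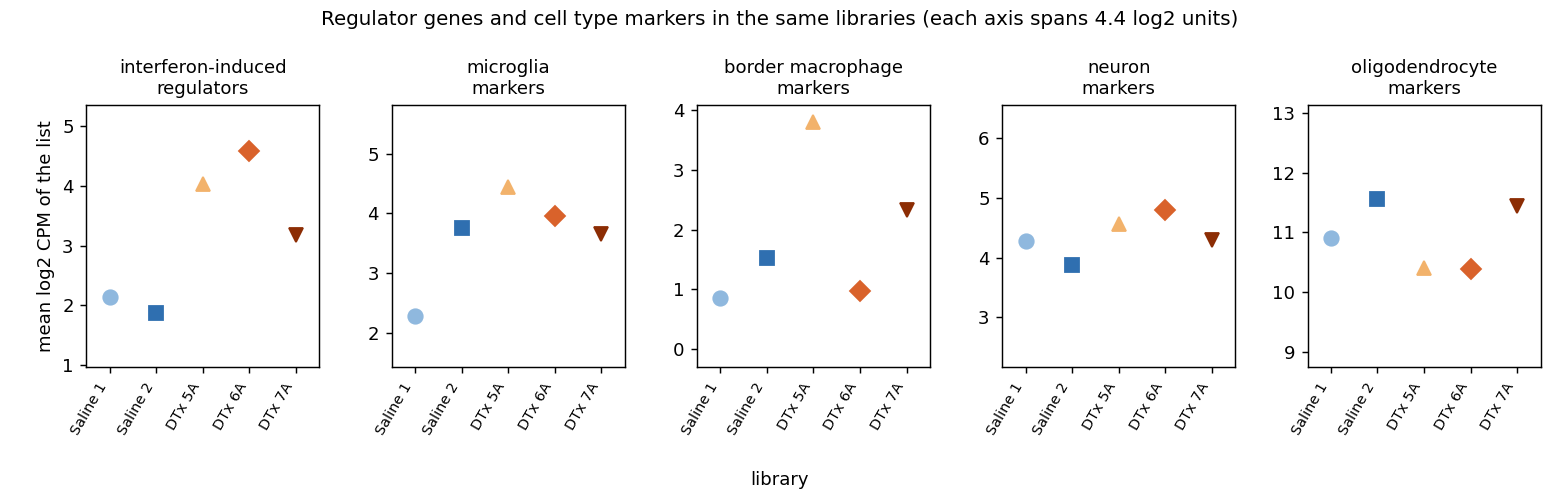
Mean log2 CPM per library of the 5 regulators and of 4 marker lists, with axes of equal span. The regulators were highest in 6A, the microglia and border macrophage markers in 5A, the neuron markers in 6A and the oligodendrocyte markers in saline replicate 2.

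The ligands of the pathway were almost absent from these RNAs. Of 21 interferon genes listed, 18 had 0 counts in all 5 libraries, Ifnb1 and the interferon-alpha genes among them. A count of 0 allows a level of up to 3 counts, or 0.134 to 0.187 CPM in a library, by counting error alone. Ifng, the type II interferon made by T and NK cells, had 0 counts in both saline libraries and 17, 4 and 0 counts in libraries 5A, 6A and 7A. T and NK cell markers summed to 0.0462 and 0.224 CPM after saline, while 5A, 6A and 7A held 0.793, 0.249 and 0.399 CPM, with Cd3d, Cd8a and Ncr1 at 0 in every library. The part of those cells in the Ifng counts was not tested.

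Of 6 other interferon receptor and JAK kinase genes 5 were tested, with 4 higher, 1 lower and 0 past the edgeR threshold (median log2 fold change 0.36). DESeq2 likewise called 0 genes in this list and in the STAT, IRF, inhibitor and sensing lists that follow. Over all genes tested, 4.29% were higher at an unadjusted edgeR p under 0.05, the share to set beside the higher genes of these lists. Il10rb, a chain of the interferon-lambda receptor with an unadjusted p of 0.0338, the 1 gene of its list under 0.05, was at 9.74 and 9.77 CPM with saline, against 22.0, 14.7 and 12.1 CPM for 5A, 6A and 7A. Ifngr2, a chain of the interferon-gamma receptor, was at 17.7 and 19.99 CPM after saline, while 5A, 6A and 7A held 26.7, 22.8 and 23.1 CPM. Jak2 was at 46.9 and 36.7 CPM with saline, against 34.0, 28.3 and 39.2 CPM for 5A, 6A and 7A, and Jak3 was at or below 1.49 CPM in every library.

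Among other transcription factors of these families, 4 STAT genes were tested, 2 higher and 2 lower (median 0.15, 0 passed, 1 with an unadjusted p under 0.05). Stat3, known for its role in reactive astrocytes, was at 114.9 and 121.3 CPM after saline, while 5A, 6A and 7A held 143.4, 168 and 148.2 CPM (log2 fold change 0.38 ± 0.15, SE, edgeR adjusted p = 0.789). Of 4 IRF genes tested, 2 were higher and 2 lower (median 0.51, 0 passed, 1 with an unadjusted p under 0.05). Irf2, a counterpart of IRF1, and Irf3, which is activated by phosphorylation, had log2 fold changes of -0.035 and -0.0017. Irf5 and Irf8, factors of the myeloid lineage that includes microglia, had 1.46 and 1.02, and both were highest in library 5A, at 4.598 and 5.76 CPM.

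Of 12 inhibitors of JAK-STAT signalling 11 were tested, 6 higher and 5 lower, with a median of 0.021 and 0 past the threshold. Pias4, a SUMO ligase that restrains STAT proteins and the 1 gene here with an unadjusted p under 0.05 (0.0373), was at 27.1 and 22.8 CPM with saline, against 18.4, 18.8 and 20.1 CPM for 5A, 6A and 7A. Socs1, which blocks JAK1 and TYK2 and is itself interferon-induced, was at 2.48 CPM on average in saline and 3.79 CPM in the DTx-labelled libraries, with overlap.

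Of 15 genes of nucleic acid sensing and interferon production 13 were tested, 11 higher and 2 lower (median 0.21, 0 passed). The RNA sensors Ifih1 and Ddx58 were the 2 with an unadjusted p under 0.05. Ifih1 was at 5.77 and 7.67 CPM after saline, while 5A, 6A and 7A held 16.6, 30.2 and 11.2 CPM, the library order of Irf9. Ddx58 was at 4.89 and 5.47 CPM with saline, against 15.0, 18.0 and 6.66 CPM for 5A, 6A and 7A. The adaptor gene Mavs and the kinase gene Tbk1, which act below the sensors, had log2 fold changes of -0.0068 and 0.12.

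The effector genes that ISGF3 induces lay on the same side as the regulators. Of 30 listed 29 were tested and 29 were higher. Their median log2 fold change was 2.57, the same with Mx1, which had no saline count, at its bound. None passed over all genes with edgeR. At an unadjusted edgeR p under 0.05 there were 25, all higher, against 4.29% of all genes higher. DESeq2 called 14, against 0.729% of all genes. Oas1a, an enzyme activated by double-stranded RNA, was at 0.139 and 0.179 CPM after saline, while 5A, 6A and 7A held 3.22, 3.421 and 0.911 CPM. Of these 29 genes 25 were highest in library 6A and 4 in 5A, against 19.3% and 19.7% of all genes tested.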

How the data were processed

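Bulk RNA sequencing of ACSA-2-selected amygdala cells was analysed from raw read counts per gene that the authors deposited, 1 column per library. STAR 2.7.5c, featureCounts 2.0.1, edgeR 3.42.4, fastp 0.23.2, MultiQC 1.11 and FastQC 0.11.9 and the builds GRCm38 and mm10 are named per the submitters' processing notes. The sources used here give no settings, annotation or strand use, so overlapping antisense reads cannot be told apart. Each library was made from 5 ng of total RNA. Saline columns were matched by number, DTx columns by group alone, and 1 further column, named as a control but matching no sample label used here, was left out, so the saline group has 2 libraries. The stated design has 3 saline mice, and the labels do not say how these relate to the 2 saline libraries analysed.

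Groups were compared in edgeR 4.0.16 (R 4.3.3) with TMM scaling, filterByExpr (minimum count 10), the robust quasi-likelihood F test and Benjamini-Hochberg adjustment over 15532 genes, with a threshold of 0.05. Fold changes are DTx over saline. Log2 CPM used a prior count of 2. DESeq2 1.42.0, limma-voom 3.58.1, the likelihood ratio test, other scalings and filters, marker covariates and each library left out were alternatives. A count of 0 was given a limit of 3 counts per library in levels, and over the group in folds. These limits cover counting error only.

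All 9 members were named. From each pathway list, genes were named from the up to 4 with the smallest p, and others (Socs1, Mavs, Tbk1, Mx1) were chosen after their values were seen, as was the looser IRF core motif. For Irf7 and Irf9 genes were named from the 3 nearest profiles. Some further genes are not reported here. The members and lists were chosen with earlier results of these data known. No label ties a library to 1 mouse, so p-values reflect only the spread among 5 libraries, which may be technical. Positions are from RefSeq GRCm38.p6, which held 9 of 9 members, and transcript lengths are those of the longest principal transcript in GENCODE M21.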

Additional observations from a re-analysis of the deposited data

How the results depend on the processing

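The count of members past the threshold was 0 in the reported fit and in 13 of 15 alternatives, and 3 with the likelihood ratio test and 3 with DESeq2. Over all genes, 5 passed in the reported fit, against 9 with no low-count filter, 100 with the likelihood ratio test, 111 with DESeq2 and 3 once the microglia mean was a covariate, and 5 to 13 with 1 library omitted (13 without library 7A). The 5 regulators were higher in 15 of 15 alternatives, and their median log2 fold change was 1.51 to 2.11 on omitting 1 library. For the receptor and kinase genes that median was 0.045 with the microglia covariate, and -0.084 to 0.028 on omitting 1 library (0.028 without saline replicate 2). Jak1 ranged from -0.038 (without saline replicate 1) to 0.17 (without saline replicate 2) and turned to -0.037 with the microglia covariate. Tyk2 turned to 0.13 with that covariate; the cause was not tested. No paired analysis was possible because the DTx columns carry numbers that no label has. The fewest counts behind a member were 17, for Irf7 in saline replicate 2.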

Other observations

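Within the interferon pathway, genes differed in which library held their highest level. Irf5, Irf8, Tlr7 (an RNA sensor of endosomes) and Ptpn6 (a phosphatase of blood-lineage cells) were highest in library 5A, as were 15 of 20 microglia markers and 7 of 7 border macrophage markers. So were the members Irf1 and Ifnar2, along with Il10rb, Ifngr2, Irf3, Ptpn1 and 4 of 29 interferon-induced effectors. Of all genes tested, 19.7% were highest in library 5A and 19.3% in library 6A. Tlr7 was at 0.323 and 1.30 CPM with saline, against 4.49, 1.43 and 1.54 CPM for 5A, 6A and 7A. Ptpn6 was at 0.970 and 2.73 CPM after saline, while 5A, 6A and 7A held 6.08, 2.67 and 2.79 CPM. Stat2, Irf9, Irf7 and Usp18 were highest in library 6A, as were 25 of 29 interferon-induced effectors and 4 of 20 microglia markers. The 2 orders were read after the values were seen, and the difference between them was not tested.

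Ifnk, the interferon-kappa gene, was the ligand with a count in every library, at 9 and 5 counts in saline and 1, 2 and 3 counts in libraries 5A, 6A and 7A.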
